A study of Mus musculus with 3 samples.

Results

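The genes described here are 10 genes known from mononuclear phagocytes, the family of monocytes, macrophages and dendritic cells, out of 48795 gene identifiers counted. They are Apoe, Lyz2, Ctsb, Ctsd, Ctss, Psap, Cd74, C1qa, C1qb and Lgals3. They were taken by symbol, and all 10 matched a single Ensembl identifier in GENCODE release M21. The libraries are polysomal RNA of mouse bone marrow cells. Of these, 2 are of the wild-type (WT) genotype, called WT 1 and WT 2. The third is of the genotype Mat KO and is called Mat KO 1, although its label gives no number. Sets of 3 values below stand in the order WT 1, WT 2, Mat KO 1. The cells were held in cycloheximide, which stops ribosomes on their mRNAs, before lysis and a sucrose gradient. The labels name no strain, age, sex or deleted sequence. By its title the series concerns translation and rRNA modification by small nucleolar RNAs from the Dlk1-Gtl2 imprinted region. The polysome comparison bears on which mRNAs are ribosome-bound in each genotype. The labels do not say whether the WT libraries came from separate mice, so p-values measure only the spread between these 2 libraries, which may be technical.

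Macrophages engulf particles and dying cells, break them down in lysosomes and show some of the peptides to T cells. Lysosomal proteases (cathepsins) digest proteins, saposins help enzymes to degrade sphingolipids, and the invariant chain Cd74 guides MHC class II molecules to the compartment where they are loaded with peptide. Macrophages also make complement C1q, which binds immune complexes and dying cells, and apolipoprotein E, which carries cholesterol out of the cell. In bone marrow, macrophages sit at the centre of erythroblastic islands and take up the nuclei that red cell precursors expel.

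The libraries differ widely in depth and content. Counts assigned to genes numbered 64547, 239429 and 125871, of which the mitochondrial rRNA genes mt-Rnr1 and mt-Rnr2, the annotated rRNA CT010467.1 and Lars2 took 67.6%, 99.0% and 88.5%. Shares below are therefore given per 10000 counts outside these 4 features, which leaves 20903, 2301 and 14430. Nuclear protein-coding genes other than Lars2 with at least 1 count numbered 4209, 378 and 572. Their median count, among those with a count, was 2, 1 and 9.5, so that Mat KO 1 held few genes with many counts each. A count of 0 allows a share of up to 1.44 per 10000 in WT 1, 13.04 in WT 2 and 2.08 in Mat KO 1, taking 3 counts as the limit. Intervals and limits cover counting error only, since the labels describe no molecular identifiers and reads may be duplicates.

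Apoe was the only one of the 10 genes with a count in every library, and Ctss was the only one with none. WT 1 held counts of 9 of the 10 genes, and WT 2 and Mat KO 1 held counts of 1 each, Apoe. Summed over the 10 genes, the counts were 297, 62 and 18. Apoe gave 53.2% of these counts in WT 1 (95% Wilson interval 47.5 to 58.8) and 100% in WT 2 (94.2 to 100) and in Mat KO 1 (82.4 to 100). For every 100 Apoe counts, WT 1 held 88.0 counts of the other 9 genes, whereas their count of 0 allowed up to 4.84 in WT 2 and up to 16.7 in Mat KO 1. Zeros of this kind were common, since 89.4% of the nuclear protein-coding genes other than Lars2 with a count in WT 1 had none in both other libraries.

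**Figure D1:**
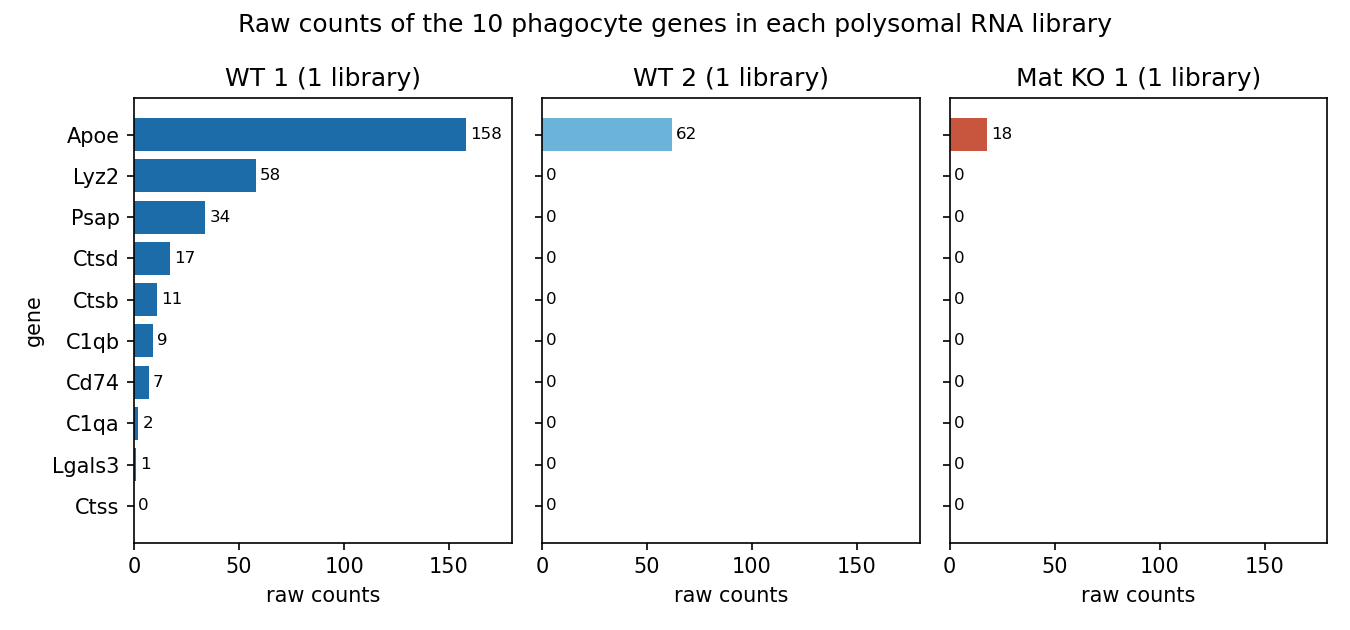
Raw counts (horizontal axis) of the 10 genes (vertical axis), with 1 panel for each polysomal RNA library and the count printed at each bar. WT 1 held 9 of the genes, led by Apoe at 158, while WT 2 and Mat KO 1 held Apoe alone, at 62 and 18.

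Macrophage markers had few counts in every library. Of 31 macrophage and monocyte markers, 10 had a count in WT 1, 1 in WT 2 and 1 in Mat KO 1, with 22, 1 and 16 counts summed. This was 10.5 per 10000 in WT 1 (6.95 to 15.9), 4.35 in WT 2 (0.767 to 24.6) and 11.1 in Mat KO 1 (6.83 to 18.0). The defining markers Adgre1 (F4/80), Cd68, Cd14, Mrc1, Fcgr1, Fcer1g and Tyrobp had 0 counts in all 3 libraries. The growth factor receptor gene Csf1r had 1 count, in WT 1. Other markers counted in WT 1 included Vcam1 at 5, 0 and 0, Mpeg1 at 4, 0 and 0 and Siglec1 at 2, 0 and 0. Zeros were common at this depth, since 4209, 378 and 572 nuclear protein-coding genes other than Lars2 had a count. Whether macrophages were present was not tested. Of the 3 markers with the highest mean share over the libraries, the apoptotic cell receptor gene Mertk had 0, 0 and 16 counts, the related receptor gene Axl had 0, 1 and 0, and the monocyte surface gene Ly6c2 had 5, 0 and 0. All the counts of the marker list in Mat KO 1 thus came from Mertk. The genes are therefore called by their names here and not read as a macrophage signal. In bulk libraries such as these, fewer cells of a type and less RNA per cell cannot be told apart, and total RNA was not analysed here, so neither can RNA amount and ribosome loading.

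Apoe (ENSMUSG00000002985, GRCm38 chromosome 7 from 19696109 to 19699188, minus strand), which encodes the lipid carrier apolipoprotein E, had 158, 62 and 18 counts. In WT 2 it was the most counted nuclear protein-coding gene other than Lars2, ahead of the next gene at 56 counts, and it also ranked first per exon length, at 29.0 counts per kb against 28.8 for the next gene. Per exon length it ranked 8 of 4209 in WT 1, at 73.9 counts per kb, and 35 of 572 in Mat KO 1, at 8.42 counts per kb. None of its exon bases overlapped another annotated gene, and none of its 50-base stretches occurred in a transcript of another gene. Only exact matches to annotated transcripts were searched, so copies with mismatches or outside the annotation would not be seen.

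**Figure D2:**
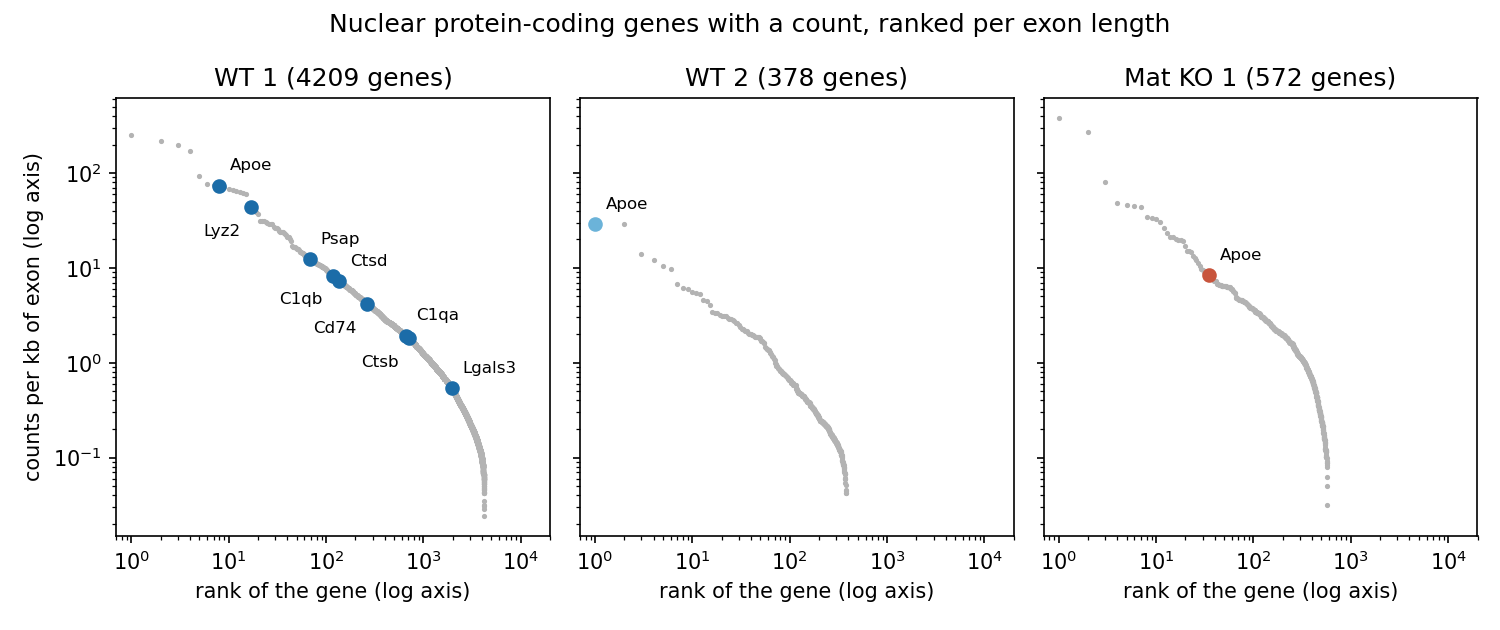
Counts per kb of exon (vertical log axis) against the rank of the gene (horizontal log axis) for all nuclear protein-coding genes other than Lars2 with a count, with 1 panel for each library and the listed genes in colour. Apoe stands at rank 8 in WT 1, 1 in WT 2 and 35 in Mat KO 1, and the other genes are spread over the range in WT 1 alone.

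The share of Apoe was lowest in Mat KO 1 on each of 3 scales. Per 10000 counts outside the 4 most counted features it was 75.6 in WT 1 (Wilson interval 64.7 to 88.3), 269 in WT 2 (211 to 344) and 12.5 in Mat KO 1 (7.89 to 19.7). The share was 6.06-fold higher in WT 1 than in Mat KO 1 (exact conditional interval 3.71 to 10.5) and 21.6-fold higher in WT 2 (12.6 to 38.8). These intervals compare libraries and not genotypes. Per 10000 nuclear protein-coding counts, without Lars2, the values were 85.0, 508 and 22.4, and per 10000 of all gene-assigned counts they were 24.5, 2.59 and 1.43. On the last scale WT 2 was 1.81-fold above Mat KO 1 (1.06 to 3.25).

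The WT libraries differed from each other in Apoe, in a direction set by the scale. WT 2 lay 3.56-fold above WT 1 (2.61 to 4.81) outside the 4 most counted features and 5.98-fold above (4.38 to 8.07) among nuclear protein-coding counts. On all gene-assigned counts the ratio of WT 2 to WT 1 was 0.106 (0.0776 to 0.143). The position of Mat KO 1 below both held on each scale. Of the 37 nuclear protein-coding genes with a count in all 3 libraries, 9 lay below both WT libraries on all 3 scales (24.3%), Apoe among them, so this order is not particular to Apoe.

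**Figure D3:**
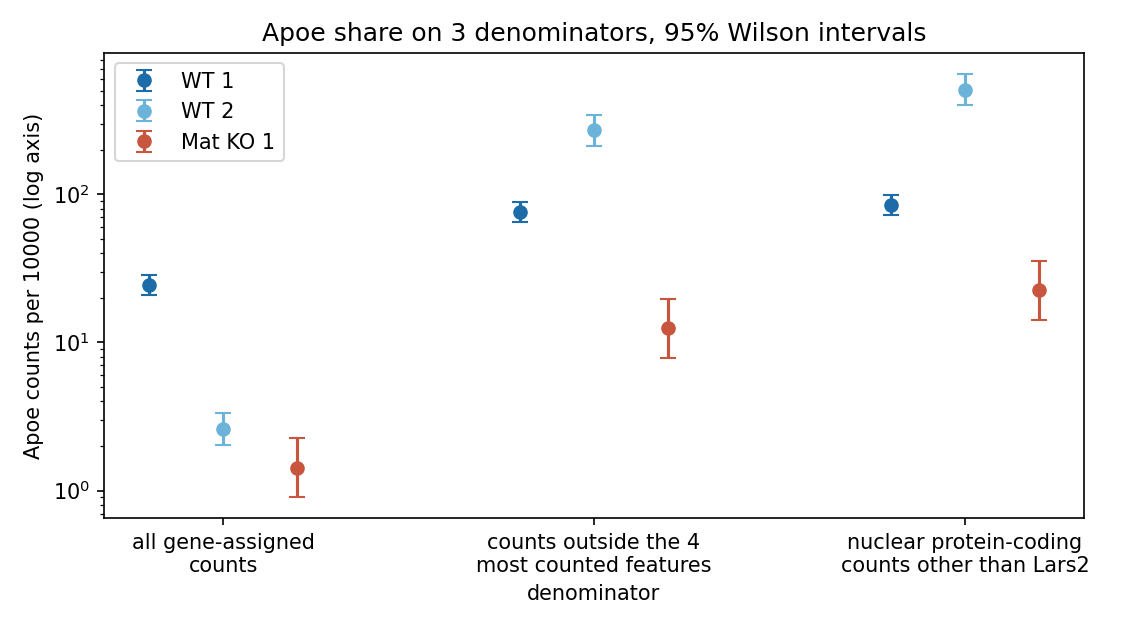
Apoe counts per 10000 (vertical log axis) in each library on 3 denominators (horizontal axis), with 1 point for each library and bars for the 95% Wilson interval. The Mat KO library is lowest on each denominator, at 1.43, 12.5 and 22.4, while the order of WT 1 and WT 2 turns between the first denominator and the others.

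No difference between the genotypes passed the test. In edgeR's quasi-likelihood test Apoe had a log2 fold change of -4.08 (Mat KO against WT, standard error 5.76, adjusted p = 0.729). At a false discovery rate of 0.05 the test called 0 of 437 genes (0%), and an unadjusted p under 0.05 was reached by 0. DESeq2 called 0 genes too (7 under 0.05 before adjustment), as did limma-voom (20) and edgeR's likelihood ratio test (71). With 1 Mat KO library and 1 residual degree of freedom, the spread of the WT libraries stands for that of Mat KO. The common dispersion was 3.88, so the lack of calls does not show that the genotypes are alike. The fold change of Apoe was negative in each of 11 settings, from -4.41 to -3.12, with adjusted p from 0.366 to 0.930 in those that had a test. The settings reuse the same libraries, so their shared sign is no separate support for the direction. Relative to the median of all genes tested, which itself was -0.27 and moved with the scaling, the fold change of Apoe lay at -3.81, and from -5.55 to -2.27 over the settings.

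By size alone, Apoe was among the genes placed lower in Mat KO 1. The size rule asks for a change of at least 1 on the log2 scale and for Mat KO 1 to lie farther from the nearer WT library than the WT libraries lie from each other, beyond both. On the log2 CPM scale used for it, Apoe lay at 10.57 in WT 1, 9.95 in WT 2 and 6.22 in Mat KO 1. The rule placed 18 of the 437 tested genes lower (4.12%). A gene at 0 counts in WT 2 could not be placed lower, and 346 of the 437 were at 0 there. Of the 10 listed genes 4 were tested. Lyz2, Psap and Ctsd were at 0 in WT 2, so Apoe alone could be placed lower. Of the 18 genes placed lower, 14 had 0 counts in Mat KO 1 and 4 had a count in all libraries, of which Apoe is 1. The placement held in 4 of 6 settings, and was lost with total counts alone and with a filter at a mean of 50 counts.

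Hepatocytes secrete much of the body's apolipoprotein E, and transcripts of liver genes were present beside Apoe. The 20 hepatocyte genes had 678, 26 and 0 counts, with 20, 2 and 0 genes counted. Alb, the albumin gene, had 176, 14 and 0 counts, Apoa1, the gene of the main HDL apolipoprotein, 76, 12 and 0, and Ttr, the transthyretin gene, 75, 0 and 0. The Apoe counts of Mat KO 1 stood beside 0 counts of these 20 genes. The part of liver transcripts in the Apoe counts was not tested in any library.

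Lyz2 (ENSMUSG00000069516, chromosome 10 from 117277331 to 117282321, minus strand), the lysozyme gene of macrophages and neutrophils, had 58, 0 and 0 counts. Its close copy Lyz1, known from Paneth cells of the gut, had 0 counts in all 3. The first 240 bases of both coding sequences, from the GENCODE M21 transcripts, are shown because a read can be assigned to Lyz2 only where the copies differ. Capitals mark the 17 bases that differ in this stretch.
Lyz2: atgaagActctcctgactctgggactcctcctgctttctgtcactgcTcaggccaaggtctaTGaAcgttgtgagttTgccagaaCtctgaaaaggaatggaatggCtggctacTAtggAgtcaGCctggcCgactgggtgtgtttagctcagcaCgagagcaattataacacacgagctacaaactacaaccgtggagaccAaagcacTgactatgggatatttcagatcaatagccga
Lyz1: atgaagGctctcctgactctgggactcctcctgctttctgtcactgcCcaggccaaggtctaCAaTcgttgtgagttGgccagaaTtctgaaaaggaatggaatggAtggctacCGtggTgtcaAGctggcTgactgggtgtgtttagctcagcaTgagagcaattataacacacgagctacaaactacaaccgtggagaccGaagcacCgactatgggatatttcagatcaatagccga
Over their full length of 447 bases the coding sequences differed at 22 bases and were 95.1% identical, with a longest run of 118 identical bases. Over its whole transcripts, 195 of the 1267 distinct 50-base stretches of Lyz2 (15.4%) also occurred in Lyz1. Reads from such stretches align to several places and would be recorded outside the gene counts, so the count of Lyz2 may be too low by an unknown amount.

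The share of Lyz2 was 27.7 per 10000 in WT 1 (Wilson interval 21.5 to 35.9). Taken at its observed value, it was at least 13.3-fold higher than in Mat KO 1 and at least 2.13-fold higher than in WT 2. Among nuclear protein-coding counts the bounds were 8.34-fold and 1.27-fold, where the interval of WT 1 (24.1 to 40.3) reaches below the 24.6 that a count of 0 allows in WT 2. On all gene-assigned counts the bounds were 37.7-fold and 71.7-fold, so which library lies farther from WT 1 turns on the scale. All such bounds here use the observed WT 1 share, without the counting error of that share. In Mat KO 1 the nuclear protein-coding genes other than Lars2 with a count had a median of 9.5 counts (quartiles 3 and 16.25). Of these genes, 22.4% had 1 count. A limit of 3 counts may therefore be too low there, so the folds against Mat KO 1 are lower bounds only without duplicate reads. Neutrophil genes were counted in the same library as Lyz2, and 0 of 8 tested were called. The 15 neutrophil markers had 543, 0 and 0 counts, with 13 genes counted in WT 1, led by the calprotectin genes S100a8 at 137, 0 and 0 and S100a9 at 133, 0 and 0, and by the granule gene Ngp at 87, 0 and 0. The part of neutrophil RNA in the Lyz2 counts was not tested.

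The lysosomal genes were counted in WT 1 alone, apart from Ctss. Psap (ENSMUSG00000004207, chromosome 10 from 60277627 to 60302597), which encodes the precursor of the saposins, had 34, 0 and 0 counts. Its share of 16.3 per 10000 (11.6 to 22.7) was, taken at its observed value, at least 7.82-fold higher than in Mat KO 1. Its interval reaches below the 13.04 that a count of 0 allows in WT 2, and on this scale a difference between the WT libraries is not shown. Among nuclear protein-coding counts the bound was 4.89-fold against Mat KO 1, and no fold could be given against WT 2, while on all gene-assigned counts the bounds were 22.1-fold and 42.0-fold. Psap ranked 69 of 4209 per exon length in WT 1, at 12.4 counts per kb.

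Of the cathepsins, 2 of 3 were counted. Ctsd (ENSMUSG00000007891, chromosome 7 from 142375911 to 142388038), an aspartic protease, had 17, 0 and 0 counts, which puts its WT 1 share at 8.13 per 10000 (5.08 to 13.0) and at least 3.91-fold higher than in Mat KO 1. Ctsb (ENSMUSG00000021939, chromosome 14 from 63122462 to 63145923), a cysteine protease, had 11, 0 and 0 counts, or 5.26 per 10000 (2.94 to 9.42) and at least 2.53-fold higher. On this scale both shares lie under the limit of a count of 0 in WT 2, so no difference from WT 2 was detectable at this depth. On all gene-assigned counts the shares in WT 1 were at least 21.02-fold (Ctsd) and 13.6-fold (Ctsb) higher than in WT 2, so this reading turns on the scale. Among nuclear protein-coding counts the bound of Ctsb against Mat KO 1 was 1.58-fold. There its WT 1 interval (3.30 to 10.6) reaches below the 3.74 that a count of 0 allows in Mat KO 1. Per exon length Ctsd lay at 7.23 counts per kb and Ctsb at 1.82, over annotated exon lengths of 2351 and 6051 bases. By share their Wilson intervals overlap, so an order of Ctsd and Ctsb is not shown there. Of the exon bases of Ctsd, 34.4% are shared with Gm49369 on the same strand, and of those of Ctsb 12.8% with Fdft1 on the opposite strand, and both partners had 0 counts in all libraries. Reads in these shared stretches may have been recorded as ambiguous.

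Ctss (ENSMUSG00000038642, chromosome 3 from 95526786 to 95556403), the cysteine protease that trims the invariant chain in antigen-presenting cells, had 0 counts in all 3 libraries. In WT 1 this allows a share of up to 1.44 per 10000, which is under the observed shares of Ctsd and Ctsb. None of the exon bases of Ctss overlapped another gene and none of its 50-base stretches occurred elsewhere among the transcripts, so its 0 does not come from shared sequence of this kind.

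The antigen presentation and complement genes had few counts, all in WT 1. Cd74 (ENSMUSG00000024610), the invariant chain, had 7, 0 and 0 counts, or 3.35 per 10000 (1.62 to 6.91). Taken at its observed value, this was at least 1.61-fold higher than in Mat KO 1. Its interval reaches below the 2.08 that a count of 0 allows there, so on this scale a difference is not shown. Among nuclear protein-coding counts the bound is 1.01-fold, at the limit of the depth, and on all gene-assigned counts it is 4.55-fold. Of the class II chains that Cd74 binds, H2-Ab1 had 6, 0 and 0 counts and H2-Aa and H2-Eb1 had 0 in all libraries. B cells express Cd74 as well, and the 11 B cell markers had 89, 0 and 1 counts, of which the immunoglobulin light chain gene Igkc gave 79, 0 and 1, the heavy chain gene Ighm 6, 0 and 0, and the receptor gene Cd79a 2, 0 and 0. The 11 dendritic cell markers had 4, 0 and 0 counts, all of Bst2. The part of these cells in the Cd74 counts was not tested.

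C1q is built from 3 chains encoded side by side. C1qb (ENSMUSG00000036905, chromosome 4 from 136880129 to 136886187) had 9, 0 and 0 counts and C1qa (ENSMUSG00000036887, chromosome 4 from 136895917 to 136898803) had 2, 0 and 0, and the third chain gene C1qc had 1, 0 and 0. The share of C1qb in WT 1 was 4.31 per 10000 (2.26 to 8.18), at least 2.07-fold higher than in Mat KO 1 and, on this scale, under the limit in WT 2. C1qa, at 0.957 (0.262 to 3.49), had fewer counts than the 3 taken as the limit, so no fold is given. Among nuclear protein-coding counts the bound of C1qb against Mat KO 1 was 1.29-fold. There its WT 1 interval (2.55 to 9.20) reaches below the 3.74 that a count of 0 allows in Mat KO 1. Per exon length C1qb lay at 8.27 counts per kb in WT 1, near Ctsd, and C1qa at 1.92. Lgals3 (ENSMUSG00000050335, chromosome 14 from 47367751 to 47386160), which encodes the sugar-binding lectin galectin-3, had 1, 0 and 0 counts, below that limit as well.

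The absence of 8 of the 9 genes of WT 1 from both other libraries was near the level of all genes. Of the 4209 nuclear protein-coding genes other than Lars2 with a count in WT 1, 89.4% had 0 counts in WT 2 and in Mat KO 1, and 0.879% had a count in both. Among genes with 1 to 9 counts in WT 1 the share at 0 in both was 90.8%, against 4 of 4 listed genes, and among those with 10 to 49 counts it was 75.8%, against 3 of 3. Of the 20 genes with at least 50 counts in WT 1, 55.0% were at 0 in both others, as Lyz2 was, and 15.0% had a count in both, as Apoe had. The zeros of the listed genes are thus no result about them.

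In edgeR's test 4 of the 10 listed genes passed the filter on low counts, and 0 were called. Lyz2, Psap and Ctsd passed through WT 1 alone, so their negative log2 fold changes of -4.48 (standard error 4.64), -3.76 (4.57) and -2.87 (4.03), each with an adjusted p of 0.729, were fixed by the filter. With no filter 9 of the 10 could be tested, with a median log2 fold change of -2.08, against -0.69 over all 4856 genes tested. As 8 of these 9 had counts in WT 1 alone, the sign of that median was fixed in advance and supports nothing. With WT 1 left out, the fold changes of Lyz2, Psap and Ctsd were 0, since both remaining libraries had no count, and that of Apoe was -3.77.

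Like nuclear protein-coding genes in general, the wider lysosomal, presentation and lipid genes had most of their counts in WT 1. These lists held 192 symbols, of which 191 matched. Their summed counts were 764, 34 and 94, where all nuclear protein-coding genes other than Lars2 had 18595, 1220 and 8021. Genes with a count numbered 88, 4 and 10, where 4209, 378 and 572 of all such genes had one. The larger numbers in WT 1 are thus no result about these lists. In all 3 libraries 0 had a count, where 0.879% of all such genes counted in WT 1 had a count in both other libraries. Of the 17 tested, 0 were called in edgeR's quasi-likelihood test in either direction. The size rule placed 1 of them lower in Mat KO 1 (Apoa1) and 2 higher (Atp6v1e1 and H2-Q7), where 33.4% of all tested genes were placed higher.

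The lysosomal proteases and their inhibitor genes, 16 genes besides the members, had 89, 16 and 0 counts. Cst3, the gene of the inhibitor cystatin C, had 47, 0 and 0 counts and the cathepsin gene Ctsz 13, 0 and 0. Ctsk, the collagen-degrading cathepsin of osteoclasts, had 4, 16 and 0 and gave all the counts of WT 2. It also gave all the counts of WT 2 in the osteoclast list, which had 48, 16 and 0 counts, with Mmp9, a matrix protease that neutrophils make too, at 36, 0 and 0 and the acid phosphatase gene Acp5 at 8, 0 and 0. The 36 lysosomal hydrolase genes had 62, 0 and 3 counts, with the glucosidase gene Gaa at 9, 0 and 0, Acp5 as above, and the acid lipase gene Lipa at 8, 0 and 0.

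Lysosomal membrane and sorting genes had 80, 4 and 4 counts. The membrane glycoprotein gene Lamp1 had 16, 0 and 0, the sorting receptor gene Sort1 20, 0 and 4, and Laptm4a 10, 4 and 0. The 18 matched genes of the vacuolar ATPase, the pump that acidifies lysosomes, had 49, 0 and 34 counts, which is 23.4 per 10000 in WT 1 (17.7 to 31.0) and 23.6 in Mat KO 1 (16.9 to 32.9). The counts of Mat KO 1 all came from Atp6v1e1, with 1, 0 and 34 counts, while Atp6v1a had 17, 0 and 0 and Atp6v1c1 11, 0 and 0. On all gene-assigned counts the list lay at 7.59 and 2.70 per 10000, and on nuclear protein-coding counts at 26.4 and 42.4, so the order of WT 1 and Mat KO 1 turns on the scale.

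MHC class II genes had 7, 0 and 0 counts, of which H2-Ab1 gave 6 and the costimulatory receptor gene Cd40 gave 1. MHC class I genes had 102, 2 and 37 counts. B2m, the invariant light chain, had 34, 0 and 0, the chaperone gene Pdia3 12, 2 and 0, and H2-Q7 0, 0 and 34. H2-Q7 has near-identical neighbours, so its count is uncertain. Complement genes had 69, 0 and 1 counts, with C3 at 39, 0 and 1, the factor D gene Cfd at 10, 0 and 0 and C4b at 6, 0 and 0.

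The 17 other apolipoprotein genes, serum amyloid A and clusterin included, had 254, 12 and 1 counts, or 122 per 10000 (107 to 137), 52.2 (29.9 to 90.9) and 0.693 (0.122 to 3.92). Besides Apoa1, Apoa2 had 50, 0 and 0 counts and the acute phase gene Saa3 41, 0 and 0. Apoe alone held more counts in WT 2 and in Mat KO 1 than these 17 genes together, and fewer in WT 1. The lipoprotein receptor and lipid handling genes had 41, 0 and 14 counts, with Lrp1, a receptor that takes up apolipoprotein E, at 11, 0 and 14 and Lcat, which esterifies cholesterol in plasma, at 6, 0 and 0. Other galectin genes had 11, 0 and 0 counts, with Lgals1 at 8, 0 and 0 and Lgals3bp and Lgals8 at 1, 0 and 0 each.

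**Figure D4:**
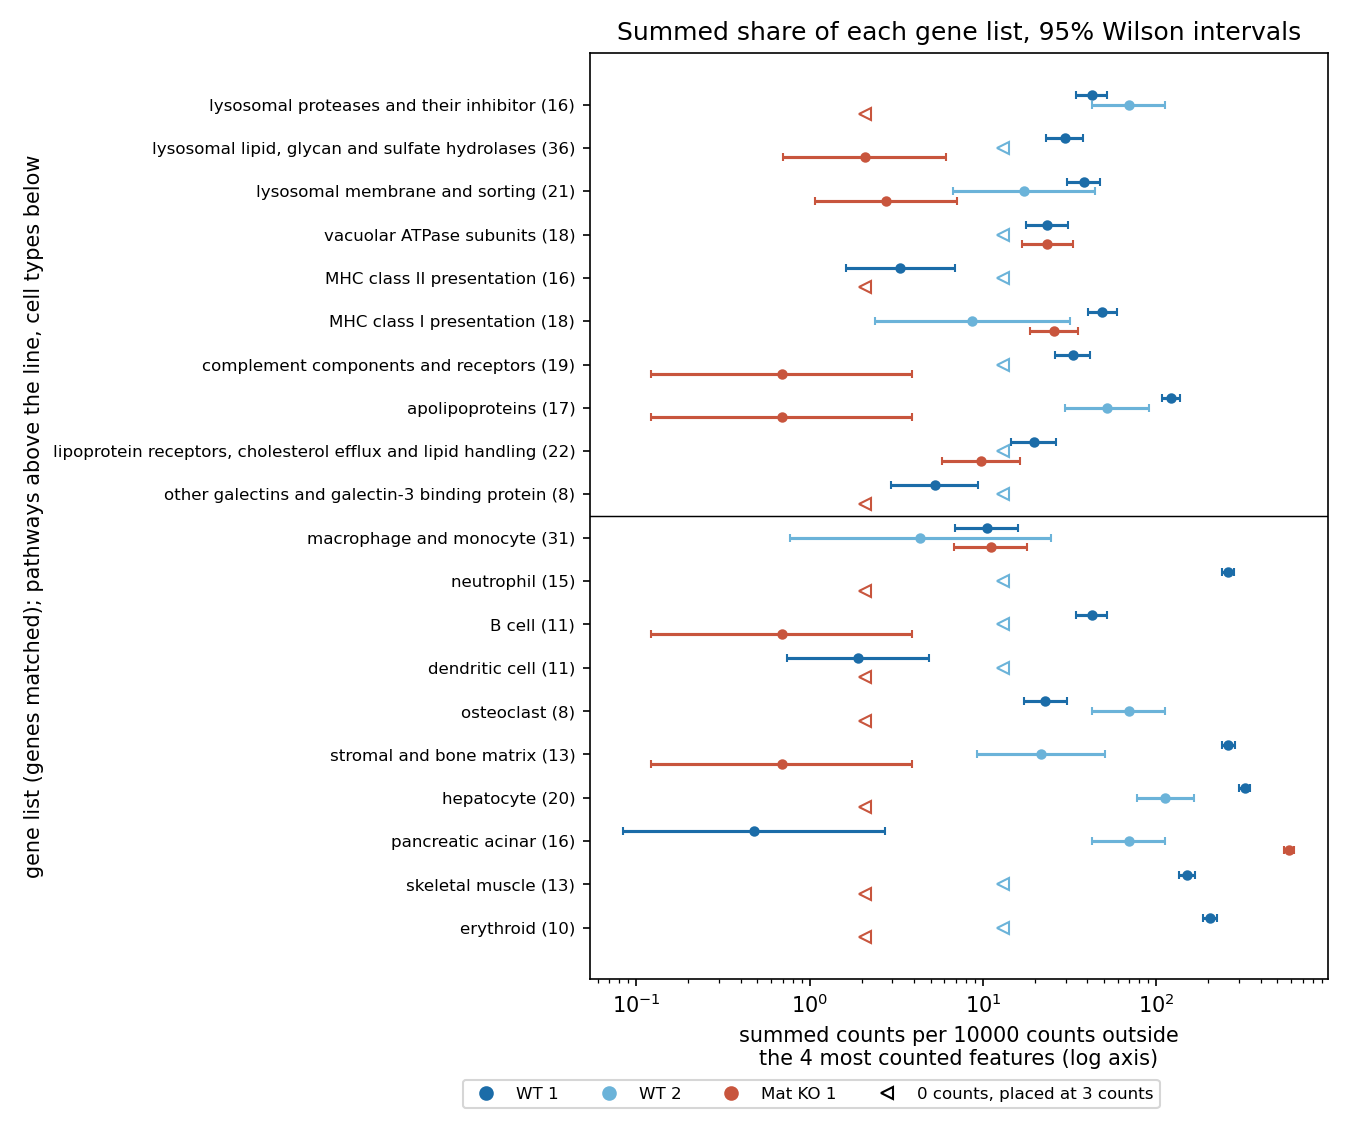
Summed counts of each gene list per 10000 counts outside the 4 most counted features (horizontal log axis), with 1 row for each list, points for the libraries, bars for the 95% Wilson interval and open triangles at 3 counts where a list had 0 counts. Neutrophil, erythroid, skeletal muscle, dendritic cell, MHC class II and other galectin lists have a count in WT 1 alone. Pancreatic acinar genes reach 584 per 10000 in Mat KO 1, and the macrophage list lies between 4.35 and 11.1 in all libraries.

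Genes known from other cell types of marrow and bone, and from other tissues, had counts in every library. Stromal and bone matrix genes had 546, 5 and 1 counts, led by the collagen gene Col1a1 at 189, 1 and 0, with Col1a2 at 134, 0 and 0 and Sparc at 99, 4 and 0. Erythroid genes had 426, 0 and 0, with the globin genes Hbb-bs at 168, 0 and 0, Hba-a1 at 139, 0 and 0 and Hbb-bt at 54, 0 and 0. Skeletal muscle genes had 314, 0 and 0, with Myh4 at 61, 0 and 0, Acta1 at 48, 0 and 0 and Tnnt3 at 42, 0 and 0. Pancreatic acinar genes had 1, 16 and 843, with the digestive enzyme genes Ctrb1 at 0, 3 and 238, Pnlip at 0, 3 and 106 and Cela1 at 1, 2 and 103. The part of these cell types and tissues in the counts of the listed genes was not tested.

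The genes closest to Apoe in profile over the 3 libraries were of general function. Likeness was the Euclidean distance between profiles of shares scaled to a sum of 1, among 259 protein-coding genes with at least 20 counts. Atp5b, a subunit of the mitochondrial ATP synthase, lay at 0.0445 with 17, 6 and 0 counts, the RNA-binding protein gene Ybx1 at 0.0581 with 16, 7 and 0, and the elongation factor gene Eef2 at 0.11 with 70, 18 and 6. For the summed counts of the 10 genes, the closest of 257 genes were Tpt1 at 0.0412 with 48, 11 and 1 counts, the ferritin heavy chain gene Fth1 at 0.0477 with 31, 7 and 0, and Eef2 at 0.0611. With 3 libraries these distances are a description and carry no test.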

How the data were processed

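Polysomal RNA of 2 WT libraries and 1 Mat KO library was analysed, grouped by the genotype label. The authors deposited raw counts per Ensembl gene, not normalized. The tools HISAT2 2.1.0, HTSeq 0.11.2 and Trimmomatic and the build GRCm38 are listed in the submitters' processing notes. The strand setting, annotation and rRNA removal were not given in the sources used here. In WT 1, WT 2 and Mat KO 1 the files record 427500, 2035709 and 1259524 reads, with 15.1%, 11.8% and 9.99% assigned to genes and 33.5%, 74.3% and 66.1% ambiguous. Summary lines that name no gene entered neither library sizes nor tests. Names, exons and transcripts came from GENCODE M21 (GRCm38), which held 48435 of the identifiers.

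Genes were tested with edgeR 4.0.16 (R 4.3.3) with its quasi-likelihood test, TMM scaling, Benjamini-Hochberg adjustment and a prior count of 2. The filter was filterByExpr at a minimum count of 10 and total of 15. The procedure was also run on simulated data, whose outcome is not reported here. Standard errors are the size of the log2 fold change over the root of F. DESeq2 1.42.0 and limma 3.58.1 were alternatives, beside other scalings, filters, left-out WT libraries and share denominators. Wilson and exact conditional intervals came from SciPy 1.17.1 at 95%. Folds against a count of 0 take 3 counts there, per library. Exon overlap and shared 50-base stretches were computed on both strands. The 10 genes and all lists were chosen with earlier results of these data known. From each list the text names the genes past the false discovery rate or otherwise the 3 with the highest mean share. Genes and markers named outside this rule, such as Lyz1, C1qc, Csf1r and the markers at 0, were chosen after their values were seen. The values of 1 list gene that the rule names are not reported here.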

Additional observations from a re-analysis of the deposited data

How the results depend on the processing

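No gene and none of the listed genes was called under any of the scalings, filters and tools tried with a test. The fold change of Apoe stayed negative under each, all of them on the same libraries. The number of genes past the size rule, 164, became 435 with no filter on low counts and 2 with a mean of at least 50 counts, and 289 to 377 with a WT library left out, where the gap between WT libraries could not be used. The median log2 fold change of all tested genes, -0.27, turned to 0.75 with DESeq2-type size factors, 0.31 with total counts alone, 0.97 with library sizes without the 4 most counted features, 0.53 with limma-voom, 1.04 with DESeq2 and 1.78 without WT replicate 1, and was -0.91 without WT replicate 2.

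The summed share of the 10 genes per 10000 in WT 1, WT 2 and Mat KO 1 was 142, 269 and 12.5. On all gene-assigned counts it was 46.0, 2.59 and 1.43, and on nuclear protein-coding counts other than Lars2 it was 160, 508 and 22.4, so the order of the WT libraries depended on the scale, and Mat KO 1 was lowest on each. Without Apoe it was 66.5, 0 and 0, and without Lyz2 114 in WT 1. Of 120 list shares recomputed on the other denominators, 66 lay inside their Wilson interval. A list at 0 counts stays at 0 on any denominator, so such lists lay inside by construction. The number 66 includes them and is no measure of how stable the shares are. No paired analysis was possible because the Mat KO group has 1 library with no replicate number in the labels. Outside the 4 most counted features a count of 0 allows most in WT 2, at 13.04 per 10000, whereas on all gene-assigned counts it allows least there, at 0.125.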
